A study of Mus musculus with 6 samples.

Results

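Thrombospondins are secreted, multimeric proteins that bind calcium, sit in the extracellular matrix and connect matrix proteins, growth factors and cell surface receptors. Thbs1 and Thbs2 form trimers, carry type 1 repeats and are known as inhibitors of blood vessel growth, whereas Thbs3, Thbs4 and Comp form pentamers and lack those repeats. CD36, a scavenger receptor that also takes up fatty acids, binds the type 1 repeats, and CD47, the ligand of SIRPα on macrophages, binds the C-terminal domain of Thbs1. In the ovary, thrombospondins are best known for their link to the growth and loss of the follicle and corpus luteum vasculature.

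The 7 genes Thbs1, Thbs2, Thbs3, Thbs4, Comp, Cd36 and Cd47 are described here, of 18193 genes that the array's annotation names. A probe set was taken where its annotation gave exactly 1 symbol and that symbol was one of these, which gave 16 probe sets. The genes were chosen from the measured difference between FORKO and WT ovaries, in which Comp and Thbs4 were among the most reduced, so the values of these genes in that comparison are a description and carry no test.

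The samples were whole ovaries of 8-month-old female mice, 3 FORKO and 3 WT, each hybridised to an Affymetrix Mouse Genome 430 2.0 array. FORKO mice lack the follicle-stimulating hormone receptor, which follicle granulosa cells carry, through a deletion meant to remove every variant of it, and the WT mice carry the intact receptor. Both genotypes came from heterozygote matings on the 129T2 svEmsJ background. For each RNA sample, left and right ovaries were combined. The labels call the samples biological replicates without the number of mice behind each, so any p-value given here reflects how far these samples differ from each other. Only 3 arrays a group limit the precision. Genotype was read from the titles, which match the genotype entries. The free text of the FORKO samples, both their description and their treatment, speaks of wild-type mice instead.

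Levels are deposited MAS5 intensities, on a linear scale and called signals, after each array was brought to the same trimmed mean. Log2 changes are FORKO minus WT on the log2(signal + 5.73) scale, which understates changes of dim probe sets, and each is given with the standard error of the limma fit over 22506 probe sets. A probe set entered that fit where its mean over the 6 arrays reached 20.4, called the dim threshold here, and it passed the test at a Benjamini-Hochberg adjusted p of at most 0.05. The deleted gene checked the labels: the Fshr probe set read 1.2, 11.2 and 11.7 in FORKO ovaries, against 99.6, 59.4 and 118.8 in WT ovaries (log2 change -2.90, limma adjusted p = 0.0102; 0.0526 without WT replicate 1 and 0.0598 without WT replicate 3). Whether its probes lie inside the deletion is not given in the sources used here. FORKO replicate 1 stood apart: its log2 signals correlated with those of the other FORKO arrays at 0.934 to 0.936 across probe sets, while FORKO replicates 2 and 3 correlated at 0.976 and the WT arrays at 0.966 to 0.969. The 3'/5' signal ratio of the Gapdh controls was 8.93, 5.24 and 6.69 on the FORKO arrays and 9.62, 8.00 and 5.34 on the WT arrays. That of the actin controls was 4.38, 4.12 and 5.27 on the FORKO arrays and 5.45, 4.45 and 3.93 on the WT arrays. The groups thus overlapped in this sign of RNA quality, and the 3' signal of both controls was the higher on all 6 arrays.

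Of the 16 probe sets, 15 reached the dim threshold, and each of the 7 genes had at least 1 of these. The exception was Cd47 probe set 1430997_at, which read 16.6, 7.4 and 14.5 in FORKO ovaries and 11.7, 11.5 and 5.3 in WT ovaries. Among the 15, 2 were past the threshold, Comp and Thbs4, both lower in FORKO. Over all probe sets 1.65% were past it in either direction and 0.595% were past it and lower in FORKO. The arrays of the genotypes did not overlap for 5 of the 15, of which 3 were lower in FORKO (Comp, Thbs4 and 1 of 3 Thbs2 probe sets) and 2 were higher (Thbs3 and 1 of 3 Cd36 probe sets). The share without overlap over all probe sets was 20.4%. The 15 log2 changes were negative in 6 and positive in 9, with a median of 0.14, beside a median of -0.01 over all probe sets. In bulk tissue, fewer cells of a type and less RNA per cell cannot be told apart, which applies to every level that follows.

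**Figure D1:**
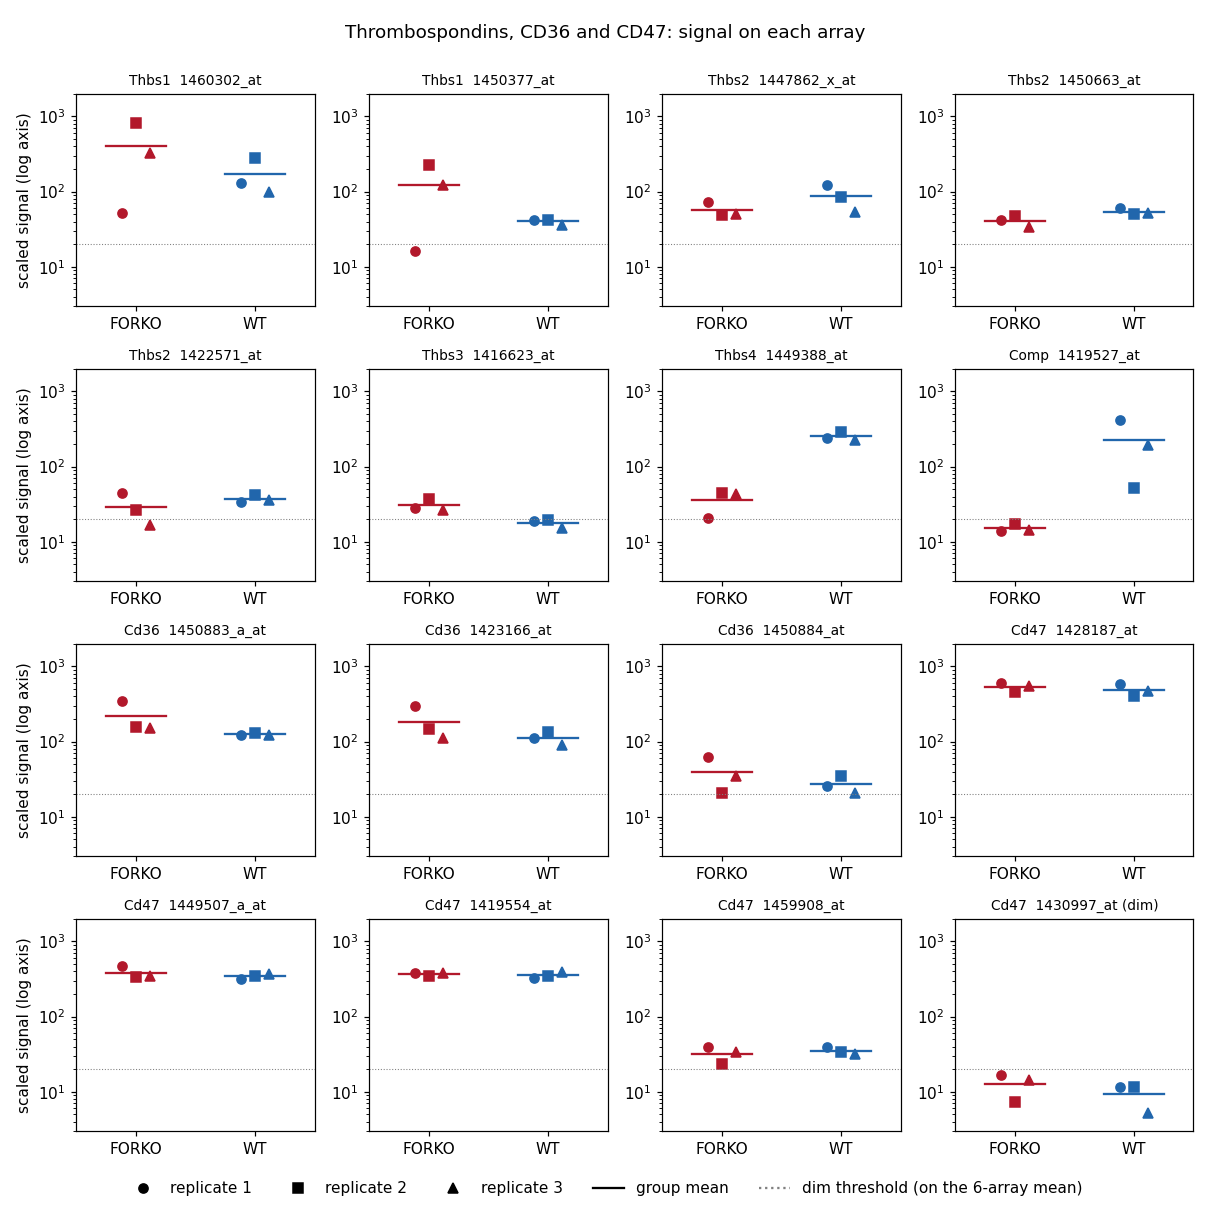
Scaled signal (log axis) of the 16 probe sets of the 7 genes on each array, FORKO left and WT right; symbols mark the replicate, bars the group mean and the dotted line the dim threshold of 20.4. Thbs4 and Comp are the panels in which the genotypes lie farthest apart, and the Thbs1 panels show FORKO replicate 1 (circles) at the bottom and FORKO replicate 2 (squares) at the top.

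Among the pentameric thrombospondins, Thbs4 was lower in FORKO on every array. Thbs4, known from tendon, muscle, heart and the nervous system, read 20.5, 44.1 and 43.5 in FORKO ovaries, against 241.8, 287.6 and 228.3 in WT ovaries. Every FORKO array lay far below every WT array, and the WT arrays were close to each other. The means were 36.1 ± 13.4 in FORKO and 253 ± 31.1 in WT (SD, n = 3 each), so the FORKO mean was 0.143 times the WT mean. The log2 change was -2.68 ± 0.26, and it ran from -2.85 to -2.08 over 16 alternative settings.

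Comp, the cartilage oligomeric matrix protein, is a pentamer that helps to order collagen fibrils in cartilage, tendon and scars. It read 13.9, 17.1 and 14.2 in FORKO ovaries, all below the dim threshold, and 423.2, 51.7 and 196.2 in WT ovaries. The FORKO arrays were nearly level, with the highest 1.23 times the lowest, while the highest WT array was 8.18 times the lowest. The groups did not overlap, but Comp entered the fit only through its WT arrays. The means were 15.1 ± 1.81 in FORKO and 224 ± 187 in WT (SD, n = 3 each), and the log2 change was -3.04 ± 0.57. With the FORKO side below the dim threshold, the size of this difference depends on the pseudocount, and it was -2.13 with 32 in place of 5.73. It also moved with single WT arrays, to -2.38 without replicate 1 and -3.83 without replicate 2.

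Thbs3, the third pentamer, is found in cartilage and many other tissues. It was slightly higher in FORKO on every array. It read 27.9, 37.3 and 26.3 in FORKO ovaries and 19.1, 19.7 and 15.1 in WT ovaries, and all 3 WT values lay below the dim threshold. The log2 change was 0.61 ± 0.24, and under a pseudocount of 32 it was 0.32. Of the 3 pentamer genes, Comp and Thbs4 thus had lower FORKO means and Thbs3 a higher one.

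**Figure D2:**
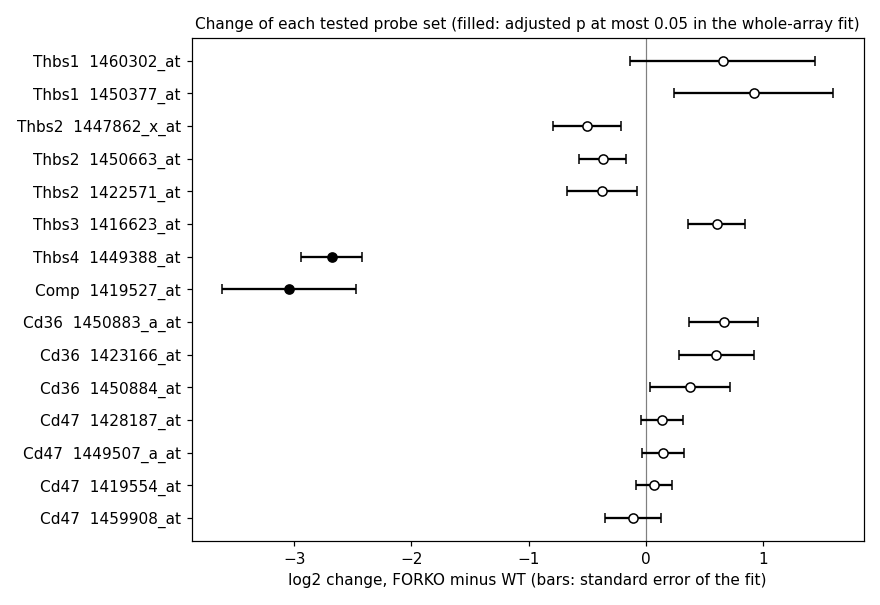
Log2 change, FORKO minus WT, of the 15 probe sets that reached the dim threshold; bars are the standard error of the limma fit and filled points were past an adjusted p of 0.05 in the fit over all probe sets. Thbs4 at -2.68 and Comp at -3.04 are the filled points; the other 13 lie between -0.50 and 0.92.

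RefSeq promoter windows (build GRCm38.p6, 250 bases before to 50 after the gene start) were matched by symbol for 5 of the 7 genes. Those of Thbs4 and Thbs3 are shown because the FORKO mean was lower for one of these pentamer genes and higher for the other. They are printed 5′ to 3′ on the strand of the gene, Thbs4 from chr13:92794769-92795068 on the minus strand and Thbs3 from chr3:89214930-89215229 on the plus strand. Capitals mark matches, on either strand, to a TATA box (TATAAA), a GC box (GGGCGG), the core of a cAMP response element (TGACG), an AP-1 site (TGAGTCA) or an NR5A site (CAAGGTCA).
Thbs4: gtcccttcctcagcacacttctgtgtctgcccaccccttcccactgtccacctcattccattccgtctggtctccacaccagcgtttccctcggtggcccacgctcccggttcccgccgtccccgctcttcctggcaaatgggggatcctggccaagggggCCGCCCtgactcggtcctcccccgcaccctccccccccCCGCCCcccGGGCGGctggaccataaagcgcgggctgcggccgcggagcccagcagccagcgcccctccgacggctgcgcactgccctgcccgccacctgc
Thbs3: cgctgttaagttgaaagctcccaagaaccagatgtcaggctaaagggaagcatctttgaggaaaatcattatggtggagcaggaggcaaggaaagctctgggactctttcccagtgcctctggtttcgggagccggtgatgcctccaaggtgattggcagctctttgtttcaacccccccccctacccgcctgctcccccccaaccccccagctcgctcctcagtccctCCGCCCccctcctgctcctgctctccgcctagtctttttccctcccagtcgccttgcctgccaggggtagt

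The Thbs4 window was 72.0% G or C and the Thbs3 window 59.0%, against a median of 52.7% over 32851 promoters of the same length. The Thbs4 window held 3 GC boxes and the Thbs3 window 1, and 35.7% of all promoters held at least 1. Neither window held the letters of the TATA box, the cAMP element core, the AP-1 site or the NR5A site, which were found in 13.6%, 20.8%, 5.20% and 1.56% of all promoters. The full cAMP element (TGACGTCA), which holds the core and is in 1.79% of promoters, was in neither, and an E-box (CANNTG), in 72.3% of promoters, matched 2 times in the Thbs4 window and 1 time in the Thbs3 window. These are matches of letters in a window and were not set against any measurement of binding.

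The trimeric thrombospondins behaved differently from each other. Thbs1 had the widest spread of the 7 genes among the FORKO arrays. Probe set 1460302_at read 52.2, 827.7 and 324.0 in FORKO ovaries and 131.4, 278.7 and 98.9 in WT ovaries. Probe set 1450377_at read 16.4, 226.2 and 120.9 in FORKO ovaries and 42.4, 41.9 and 36.1 in WT ovaries. On both, FORKO replicate 1 was the lowest of the 6 arrays and FORKO replicates 2 and 3 were the highest, so the groups overlapped. The highest FORKO array was 15.8 times the lowest on the first probe set and 13.8 times on the second, while the corresponding WT ratios were 2.82 and 1.18.

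The Thbs1 log2 changes were 0.65 ± 0.79 for 1460302_at and 0.92 ± 0.68 for 1450377_at, and neither was past the threshold. Without FORKO replicate 1 they were 1.71 and 1.91 and both passed the threshold. In that fit 4 of the 15 probe sets passed, and 3.84% of all probe sets did. Without FORKO replicate 2, in contrast, they were -0.21 and 0.21 and neither passed. A further probe set, annotated to both Pald1 and Thbs1 and so outside the rule, was looked at after the values were seen. It read 202.9, 2148.4 and 1590.8 in FORKO ovaries and 902.6, 1231.2 and 663.7 in WT ovaries, again with FORKO replicate 1 lowest and the other 2 FORKO arrays highest.

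Some markers of the follicle's granulosa cells were low on the same FORKO array and others were not. The summed signal of the 8 granulosa markers on the array was 6005, 13354 and 14421 in FORKO ovaries and ran from 11606 to 15453 in WT ovaries. Among them, Inhba, a subunit shared by activin and inhibin, read 54.2, 3866.9 and 3755.9 in FORKO ovaries and 4332.0, 2046.1 and 2931.4 in WT ovaries. Fst, the activin-binding follistatin, read 42.0, 1831.9 and 1766.0 in FORKO ovaries and 1527.2, 907.8 and 1171.0 in WT ovaries. Inha, the inhibin alpha subunit, read 2008.8, 3985.1 and 4359.5 in FORKO ovaries and 5104.3, 4780.1 and 5219.8 in WT ovaries. Foxl2, a granulosa cell transcription factor, read 849.5, 872.0 and 819.2 in FORKO ovaries and 809.8, 625.9 and 630.6 in WT ovaries. Amhr2, the receptor for anti-Müllerian hormone, read 2840.5, 2128.5 and 2941.1 in FORKO ovaries and 1651.9, 1549.7 and 1745.1 in WT ovaries. On FORKO replicate 1, Foxl2 and Amhr2 thus lay above every WT array, while Inhba, Fst and Inha lay below every other array. These 5 genes were chosen after their values were seen. Amh was under the dim threshold on all 6 arrays. The part of granulosa cell content in the Thbs1 values was not tested.

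Thbs2, the other trimer, gave lower FORKO means on all 3 of its probe sets, and none was past the threshold. Probe set 1450663_at read 42.5, 47.0 and 33.4 in FORKO ovaries and 59.8, 50.5 and 52.5 in WT ovaries, with no overlap and a log2 change of -0.37 ± 0.20. Probe set 1447862_x_at read 72.9, 49.3 and 49.7 in FORKO ovaries and 122.3, 85.2 and 52.9 in WT ovaries, a change of -0.50 ± 0.29. Here FORKO replicate 1 lay above WT replicate 3. Probe set 1422571_at read 44.7, 26.1 and 16.8 in FORKO ovaries and 33.9, 42.1 and 35.7 in WT ovaries, where FORKO replicate 1 was the highest of all 6 arrays. Its change of -0.37 ± 0.30 was -0.68 without FORKO replicate 1 and -0.10 without FORKO replicate 3.

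Turning to the receptors, Cd36 had higher FORKO means on all 3 probe sets, and FORKO replicate 1 was the highest array on each. Probe set 1450883_a_at read 350.1, 156.4 and 150.0 in FORKO ovaries and 124.1, 128.5 and 123.5 in WT ovaries. Probe set 1423166_at read 296.5, 146.2 and 112.5 in FORKO ovaries and 110.2, 134.3 and 90.1 in WT ovaries. The third, 1450884_at, read 62.6, 20.7 and 35.1 in FORKO ovaries and 25.6, 34.7 and 20.8 in WT ovaries. Only the first separated the genotypes completely. The log2 changes were 0.67 ± 0.29, 0.60 ± 0.32 and 0.38 ± 0.34, and none was past the threshold. Without FORKO replicate 1 they were 0.28, 0.21 and 0.03.

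Cells that carry CD36 include macrophages, capillary endothelium, platelets and adipocytes. The summed signal of 8 macrophage markers was 3244, 1804 and 2484 in FORKO ovaries and 1625 to 2319 in WT ovaries, so FORKO replicate 1 was again the highest array. In the fit without a block none of the 8 was past the threshold, their changes were all positive, and the largest were Cd14, a lipopolysaccharide co-receptor (0.99, limma adjusted p = 0.0989), and C1qa, a complement C1q chain (0.56, limma adjusted p = 0.353). With the replicate number as a block Cd14 passed (limma adjusted p = 0.0298). The 12 endothelial markers summed to 1398 to 1500 in FORKO ovaries and 1259 to 1338 in WT ovaries, with 0 of 10 tested past the threshold. Their median log2 change was 0.02. Pecam1 and Tie1 were under the dim threshold on all arrays, and the largest changes were those of Esam, a junction protein (0.36, limma adjusted p = 0.430; 0.19 without FORKO replicate 1), and Kdr, the main receptor for VEGF (0.31, limma adjusted p = 0.437). Of 7 platelet and megakaryocyte markers 4 (Ppbp, Gp9, Gp6 and Treml1) were under the dim threshold on all arrays. The 7 summed to 247 to 315 in FORKO ovaries and 189 to 242 in WT ovaries, and the 2 tested, Itga2b (0.41, limma adjusted p = 0.598) and Pf4 (0.34, limma adjusted p = 0.409), did not pass. All 4 adipocyte markers on the array were under it too, with sums of 6.38 to 21.5 in FORKO ovaries and 21.8 to 31.7 in WT ovaries. The part of these cells in the Cd36 values was not tested.

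**Figure D3:**
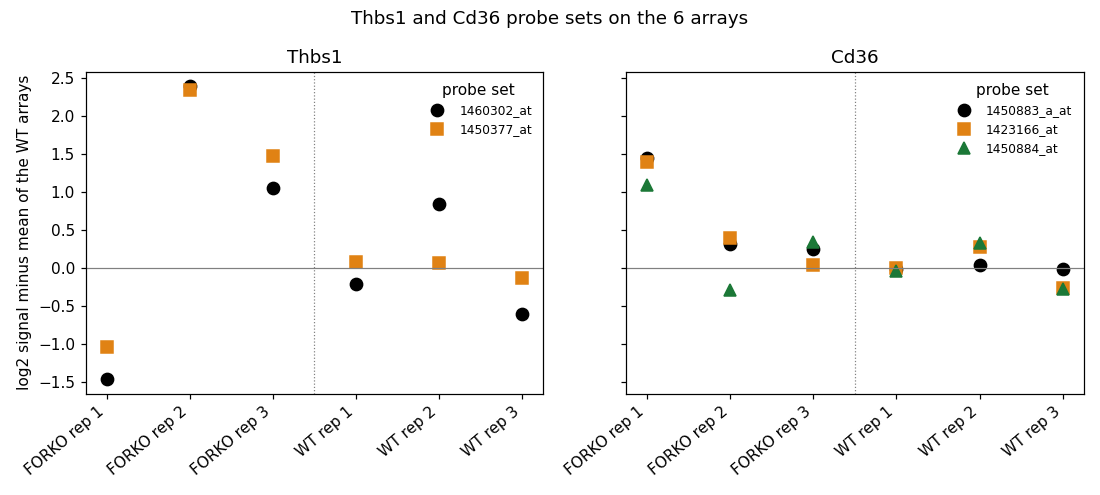
Log2 signal of the Thbs1 and Cd36 probe sets on each array, minus the mean of the 3 WT arrays, FORKO arrays left of the dotted line and WT arrays right of it. On FORKO replicate 1 both Thbs1 probe sets are the lowest of the 6 arrays (-1.46 and -1.05) and all 3 Cd36 probe sets the highest.

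Cd47, which signals to phagocytes not to engulf the cell that carries it, was nearly level. Probe set 1428187_at read 594.5, 460.0 and 550.6 in FORKO ovaries and 581.9, 408.3 and 473.7 in WT ovaries. Probe set 1449507_a_at read 473.4, 332.0 and 348.7 in FORKO ovaries and 312.3, 349.3 and 368.6 in WT ovaries. The third, 1419554_at, read 381.6, 342.6 and 386.0 in FORKO ovaries and 323.6, 348.6 and 387.2 in WT ovaries. On each the genotypes overlapped, and the changes of 0.14 ± 0.18, 0.15 ± 0.18 and 0.07 ± 0.15 were no larger than their standard errors. The fourth, 1459908_at, read 39.9, 23.3 and 33.6 in FORKO ovaries and 39.2, 33.5 and 31.5 in WT ovaries, a change of -0.11 ± 0.24. The sign held in all 16 alternatives for 1428187_at (0.02 to 0.33) but not for the other 3: 1449507_a_at was -0.01 without FORKO replicate 1, 1419554_at was -0.01 with all array medians set equal, and 1459908_at was 0.07 without FORKO replicate 2.

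The 11198 other genes were ranked by how near their profile was to that of Comp. The measure was the root mean square difference of log2 signals over the 6 arrays, each gene centred on its own mean. Genes with clone or predicted names were left out of the 5 named here. The nearest of the rest was Ces2a, a carboxylesterase, at 0.47. It read 0.5, 1.1 and 1.6 in FORKO ovaries and 100.5, 2.0 and 43.1 in WT ovaries. Tnfsf11, the osteoclast-forming cytokine RANKL, followed at 0.50. It read 18.4, 18.0 and 13.4 in FORKO ovaries and 192.4, 34.9 and 107.3 in WT ovaries. Myom2, a protein of the muscle M-band, was at 0.58, Ankrd63 at 0.61 and Insyn2b at 0.65. All 5 shared with Comp the order of the WT arrays, with replicate 1 highest and replicate 2 lowest. The ranking used these same arrays and so favours genes with that order. Like Comp, Ces2a, Tnfsf11, Myom2 and Insyn2b were below the dim threshold on every FORKO array, where distances depend on the pseudocount.

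For Thbs4, clone and predicted names were again left out. The nearest were then Apoa4, an apolipoprotein (0.29), Atp12a, a proton and potassium pump (0.35), the deleted gene Fshr (0.42), Gsg1l, which associates with AMPA receptors (0.43), and Pramel29 (0.45). Apoa4 read 45.6, 148.5 and 119.7 in FORKO ovaries and 603.8, 522.9 and 418.5 in WT ovaries. All 5 were lowest on FORKO replicate 1, as Thbs4 was, which the ranking on these arrays likewise favours. Atp12a and Fshr were below the dim threshold on every FORKO array. With all 11198 other genes ranked, whatever their names, Thbs4 was the 12th nearest to Comp and Comp the 257th nearest to Thbs4. The difference between them was 0.98. Among WT ovaries the highest array was 8.18 times the lowest for Comp and 1.26 times for Thbs4.

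**Figure D4:**
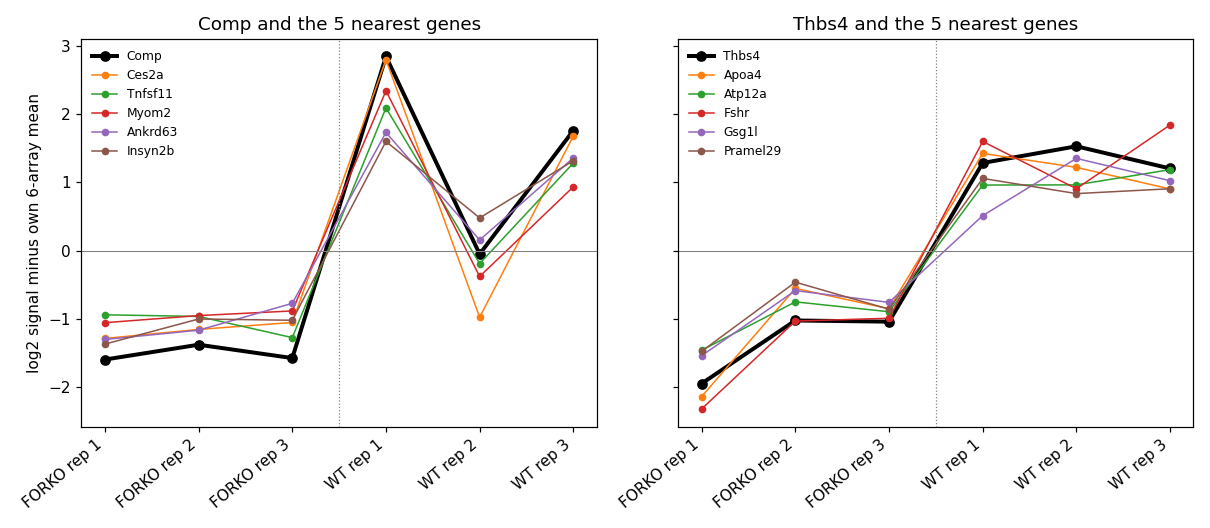
Log2 signal minus each gene's own 6-array mean for Comp (left panel, black) and Thbs4 (right panel, black) with the 5 nearest genes of each, FORKO arrays left of the dotted line. Genes with clone or predicted names were left out. Comp and its neighbours peak on WT replicate 1 and dip on WT replicate 2, while Thbs4 and its neighbours are lowest on FORKO replicate 1.

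Other genes of the thrombospondin system were followed in lists, with the brightest probe set standing for a gene. Over the 19 lists of pathway genes and cell markers, 148 of 239 genes were tested and 12 passed. Among all genes 2.14% passed, 240 of 11199, and the median log2 change over all of them was -0.02. The lists were chosen with earlier results of these data known, and the 12 include Fshr, the deleted gene. The list counts are therefore a description. In a fit with the replicate number as a block, 22 of the list genes passed, and that value is given wherever it changes a call. This fit was run because same-numbered arrays deviated together, a pairing that the labels do not state.

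The pathway list with the most calls, which was also the largest list, was that of proteins with a type 1 repeat like that of Thbs1 and Thbs2. Of 52 on the array 24 were tested, 3 rose and 1 fell, and the median log2 change was 0.26. Spon1, the matrix protein F-spondin, rose: it read 1031.9, 723.2 and 809.9 in FORKO ovaries, against 350.1, 184.4 and 235.8 in WT ovaries (1.75 ± 0.24, limma adjusted p = 0.0103). It passed on 3 of 4 tested probe sets. Ccn2, the connective tissue growth factor, rose to 1494.4, 1239.9 and 1095.9 in FORKO ovaries, against 552.0, 379.1 and 307.8 in WT ovaries (1.65 ± 0.22, limma adjusted p = 0.0102). These FORKO arrays all lay above the WT arrays.

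Ccn1, a matricellular protein of the same family as Ccn2, read 145.5, 125.3 and 113.1 in FORKO ovaries and 63.1, 43.2 and 38.7 in WT ovaries (1.33 ± 0.22, limma adjusted p = 0.0194). It passed on 1 of 2 tested probe sets. Rspo2, an R-spondin that strengthens Wnt signals and is known from oocytes, fell to 29.1, 46.6 and 45.1 in FORKO ovaries, against 132.2, 122.2 and 121.3 in WT ovaries (-1.53 ± 0.21, limma adjusted p = 0.0102). The direction held without any 1 array, but the call did not. Spon1 failed without WT replicate 2 or 3 (limma adjusted p = 0.0548 and 0.0587), Ccn2 without WT replicate 2 (limma adjusted p = 0.0583), and Ccn1 without WT replicate 2 or 3 or FORKO replicate 3 (limma adjusted p = 0.0525 to 0.0981). Rspo2 failed without any 1 of the WT arrays (limma adjusted p = 0.0516 to 0.0567). Oocyte markers were lower beside Rspo2: the 9 on the array summed to 334 to 548 in FORKO ovaries and 803 to 984 in WT ovaries, with 1 of 6 tested past the threshold, the zona pellucida gene Zp2 (-1.29, limma adjusted p = 0.0112). Zp2 failed without WT replicate 1 or 2 (limma adjusted p = 0.0530 and 0.0567). All 6 changes were negative and Figla was under the dim threshold on all arrays. The part of oocyte content in the Rspo2 values was not tested.

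Markers of the ovarian surface epithelium were higher beside Spon1, Ccn1 and Ccn2. The 8 markers summed to 1365 to 2245 in FORKO ovaries and 749 to 813 in WT ovaries. Of these, 3 rose: the keratins Krt8 (1.07, limma adjusted p = 0.0155) and Krt18 (1.15, limma adjusted p = 0.0321) and the membrane glycoprotein Gpm6a (1.22, limma adjusted p = 0.0496, on 1 of 2 tested probe sets). Their calls, too, were lost without single arrays, Krt8 and Gpm6a without any 1 of the WT arrays or FORKO replicate 3, and Krt18 in every fit without 1 array except that without FORKO replicate 1. Krt18 also failed with equal array medians or with no intensity trend in the variance (no trend), and Gpm6a under quantile or median scaling, either other pseudocount, either other dim filter or no trend. The part of the surface epithelium in the Spon1, Ccn1 and Ccn2 values was not tested.

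No further receptor of thrombospondins passed without the block. Of 18 on the array 16 were tested, with a median log2 change of 0.26, 5 negative and 11 positive. The largest changes were those of Itga3, an integrin subunit that binds Thbs1, and Sdc4, a heparan sulfate proteoglycan. Itga3 read 37.4, 47.7 and 69.2 in FORKO ovaries and 19.6, 20.3 and 35.3 in WT ovaries (0.89, limma adjusted p = 0.181). Sdc4 read 2246.4, 1262.7 and 1424.0 in FORKO ovaries and 1051.9, 952.1 and 816.1 in WT ovaries (0.76, limma adjusted p = 0.128). Both separated the genotypes by array, and Sdc4 passed with the replicate block (limma adjusted p = 0.0442). Sirpa, the partner of CD47, read 237.9, 124.9 and 101.9 in FORKO ovaries and 108.3, 101.6 and 100.4 in WT ovaries, and Cacna2d1, a neuronal thrombospondin receptor, had a change of -0.38. Sirpa and Cacna2d1 were chosen after their values were seen.

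None of 6 tested proteases that cut thrombospondins or Comp passed, of 9 on the array, and their median was -0.14. Adamts1, a protease that cuts Thbs1 and Thbs2 and is known from ovulating follicles, read 83.4, 102.6 and 91.8 in FORKO ovaries and 119.4, 262.2 and 185.3 in WT ovaries, with no overlap (-0.92, limma adjusted p = 0.132; 0.0498 with the replicate block). Mmp2, a gelatinase that Thbs2 helps to clear, had a change of -0.66 (limma adjusted p = 0.575), which was -0.06 without FORKO replicate 1. Of the genes of latent TGF-β, which Thbs1 can activate, 14 of 16 on the array were tested and none passed, with a median of 0.29. The largest changes were Ltbp4, a latent TGF-β binding protein (0.79, limma adjusted p = 0.0961), and Tgfbr3, the co-receptor betaglycan (0.77, limma adjusted p = 0.124; 0.0377 with the replicate block).

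Matrix partners of Comp and the thrombospondins did not pass either, 0 of 10 tested of 17 on the array, with a median of -0.14. Col1a1, a chain of fibrillar collagen I, had a change of -0.94 (limma adjusted p = 0.289) and Matn2, a matrilin, -0.66 (limma adjusted p = 0.565). Without FORKO replicate 1 these were -0.46 and -0.03. Matn1, Matn3, Matn4, Col2a1, Col9a2 and Col9a3 were under the dim threshold on all arrays, whereas Acan, the main cartilage proteoglycan, was above it on all and Col9a1 on FORKO replicate 3 only. Among 14 genes of fatty acid uptake beside Cd36, all tested, 1 rose, with a median of 0.18. This was Fabp3, a fatty acid binding protein, which read 775.9, 254.8 and 450.6 in FORKO ovaries and 123.4, 60.7 and 150.1 in WT ovaries (2.04 ± 0.41, limma adjusted p = 0.0418) and passed on 1 of 2 tested probe sets. It did not pass without any 1 of the WT arrays or without FORKO replicate 3 (limma adjusted p = 0.0892 to 0.168), nor with either other dim filter or no trend (limma adjusted p = 0.0545 to 0.0695). Slc27a2, a fatty acid transporter, did not pass without but did with the replicate block (1.15, limma adjusted p = 0.0312). Slc27a2, Tagln, Star, Sfrp4, Amhr2 and Nr5a2 were named after their values were seen.

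**Figure D5:**
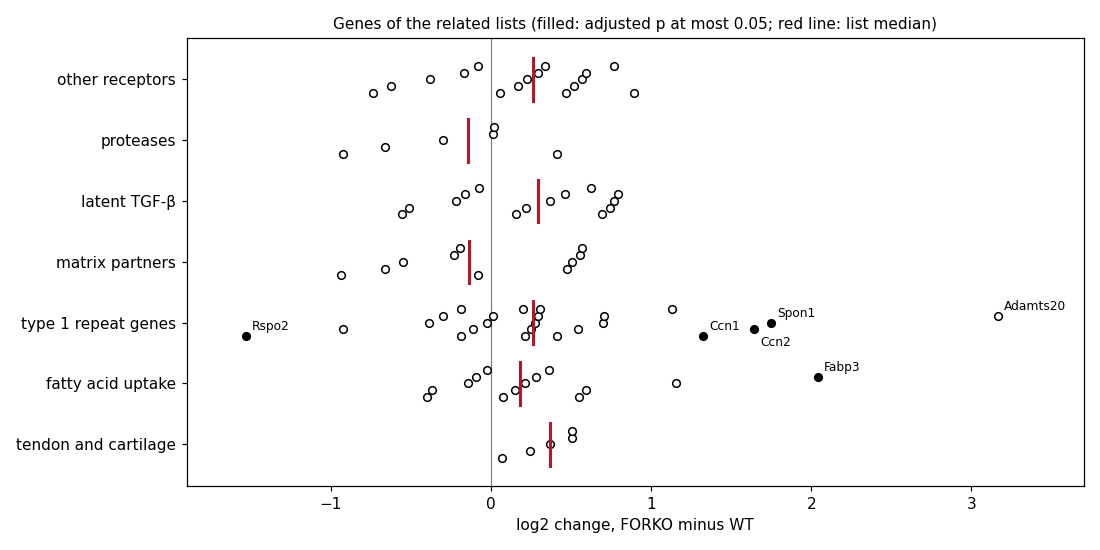
Log2 change, FORKO minus WT, of each tested gene in 7 lists of genes related to the thrombospondins; filled points passed an adjusted p of 0.05 over all probe sets and the red line is the list median. Spon1, Ccn2, Ccn1 and Fabp3 rose and Rspo2 fell, while no gene of the other 5 lists has a filled point; Adamts20 lies farthest right but did not pass.

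Comp is known from cartilage and tendon, and Thbs4 from tendon among other tissues, so markers of cartilage and tendon were set beside them. The 15 markers summed to 673 to 681 in FORKO ovaries and 468 to 502 in WT ovaries. Of the 15, 5 were tested, all with positive changes and none past the threshold, the largest being the transcription factor Mkx (0.51, limma adjusted p = 0.227) and the proteoglycan Acan (0.51, limma adjusted p = 0.298). Of the 15, 7 (Tnmd, Kera, Chad, Cilp2, Snorc, Cytl1 and Col2a1) were under the dim threshold on all 6 arrays. The transcription factors Scx and Sox9 exceeded it on FORKO replicate 3 only, at 23.4 and 22.4. Acan and Mkx were above it on every array and made up most of the sums. The means were 377 for Mkx and 128 for Acan in FORKO ovaries, and 263 and 88.0 in WT ovaries. All 8 skeletal muscle markers were also under it on all arrays.

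Smooth muscle markers, in contrast, had negative changes in all 8 tested of 9 on the array. Their median was -0.44, and the enteric actin Actg2 fell to 34.3, 28.6 and 41.9 in FORKO ovaries, against 68.5, 73.7 and 88.3 in WT ovaries (-1.03, limma adjusted p = 0.0438). This call was lost without FORKO replicate 2 or 3 or any 1 of the WT arrays (limma adjusted p = 0.0708 to 0.162), without a dim filter, or with arrays scaled to their bacterial spike-in controls (spike scaling). Tagln, an actin-binding protein, did not pass without but did with the replicate block (-0.73, limma adjusted p = 0.0361). The 9 markers summed to 1332, 2972 and 2998 in FORKO ovaries and 2502 to 3059 in WT ovaries. For this sum only FORKO replicate 1 lay below the WT range. Acta2 was the brightest of the 9, at 755.5, 1935.3 and 2156.8 in FORKO ovaries and 1515.8 to 1756.0 in WT ovaries. Like Actg2, Cnn1 (21.9, 3.2 and 23.3 against 43.7 to 47.8) and Myh11 (83.2, 83.7 and 97.1 against 122.4 to 129.3) were lower on every FORKO array. Cnn1 and Myh11 did not pass (limma adjusted p = 0.140 and 0.202), and the other markers overlapped. Acta2, Cnn1 and Myh11 were named after their values were seen. Of 7 stroma markers, all tested, none passed, with sums of 5992 to 6848 in FORKO ovaries and 5212 to 6168 in WT ovaries. Lum, a collagen-binding proteoglycan, had the largest change (-1.82, limma adjusted p = 0.212; 0.0368 with the replicate block), which was -0.92 without FORKO replicate 1.

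Of 7 tested granulosa markers, only the deleted gene Fshr passed by its brightest probe set. Amhr2 (0.66, limma adjusted p = 0.0697) and Nr5a2, a nuclear receptor (-1.87, limma adjusted p = 0.0547), did not by theirs, but 2 of 3 Amhr2 and 1 of 3 Nr5a2 probe sets passed. With the replicate block both brightest probe sets passed too (limma adjusted p = 0.0346 and 0.0421). Among 6 luteal markers all changes were negative and Fdx1, the electron donor of steroid-cleaving enzymes, fell (-0.63, limma adjusted p = 0.0299), with sums of 7331 to 13268 in FORKO ovaries and 12634 to 14155 in WT ovaries. Of these markers, Sfrp4 read 28.9, 3521.4 and 3294.9 in FORKO ovaries and 893.9, 581.4 and 844.4 in WT ovaries. Its FORKO mean was thus the higher (2282 against 773), although its log2 change was -0.05 ± 1.43. The Fdx1 call was lost without FORKO replicate 2 or any 1 of the WT arrays (limma adjusted p = 0.0773 to 0.136), without a dim filter, without a trend and with the spike scaling. Star, which brings cholesterol into mitochondria, did not pass without but did with the replicate block (-0.87, limma adjusted p = 0.0418). None of 4 theca markers passed, and they summed to 6159 to 6667 in FORKO ovaries and 6739 to 7652 in WT ovaries. Of the 4, only Cyp11a1 separated the genotypes, at 2670.7, 3086.6 and 3269.9 in FORKO ovaries and 4150.3 to 4471.5 in WT ovaries (-0.54, limma adjusted p = 0.0668). The FORKO means of Cyp17a1 (1113 against 655) and Ptch1 (1264 against 1168) were higher, and that of Ephx2 was lower (945 against 1139). Cyp11a1 and Ptch1 were named after their values were seen. Cyp17a1, the androgen-forming enzyme, and Ephx2, a soluble epoxide hydrolase, had the largest theca changes (0.58 and -0.61, limma adjusted p = 0.805 and 0.714). The part of any of these cell types in the Comp and Thbs4 values was not tested. Without FORKO replicate 1 the changes of Comp and Thbs4 were -3.00 and -2.38.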

How the data were processed

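Per the submitters' processing notes, the authors made the values with MAS5. The deposited values are intensity signals on a linear scale, 1 per probe set, and their scaling target was not given in any source at hand. From these, each of 6 arrays was multiplied by a factor of 0.895 to 1.09 to share a mean, computed after trimming 2% at both ends, 64 control probe sets were left out of 45101, and 22506 with a mean of at least 20.4 were tested on log2(signal + 5.73) with limma (version 3.58.1, under R 4.3.3): a two-sided test from lmFit and trended eBayes, Benjamini-Hochberg adjustment, all 6 arrays, no covariate. The script was tested on simulated data. Figures used matplotlib 3.10.9.

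The annotation gave 1 symbol for 34958 probe sets, several for 932 and none for 9211, and 34754 matched RefSeq genes by Entrez identifier with 0 symbols changed. The 7 genes, the lists and the rule for named genes were chosen with earlier results of these data known. The rule names all probe sets of the 7 genes, Fshr, from each list up to 4 passing genes by size of change (in lists without one, the top 2), and the 5 nearest profiles of Comp and Thbs4. Genes with clone or predicted names were left out of those nearest profiles. None of 6 array pairs within a group was identical. Replicate numbers come from the titles, which do not call them pairs. Same-numbered arrays deviated together from their group means (correlations 0.195, 0.134 and 0.358 across probe sets), so a fit with the number as a block was run beside the main one. This pairing was inferred from these same values and was not tested, and calls that passed only with the block rest on it. Other alternatives were quantile, median and no scaling, scaling to 9 bacterial spike probe sets (chosen after seeing the data), pseudocounts of 1 and 32, no or a stricter dim filter, no trend, any probe set of a gene, and leaving out each array. With 3 arrays against 3, an exact permutation test cannot go below 0.1, so none was used. Protein sequences were not used here.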

Additional observations from a re-analysis of the deposited data

How the results depend on the processing

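The values of the 7 genes chose them, so their counts are a description. Of the 15 probe sets 2 passed, against 1 (Thbs4) with a pseudocount of 32, no dim filter, a stricter one, no trend, or without WT replicate 1 or 3 or FORKO replicate 2 or 3, and 1 to 4 over the fits without 1 array. Over all probe sets 372 passed. This was 221 without a dim filter, 191 with a stricter one, 646 when scaled to the bacterial spikes, and 62 to 864 without 1 array, the highest without FORKO replicate 1 and the lowest without WT replicate 2. Of list genes 12 passed. This was 6 with the stricter filter, 20 with the spike scaling, and 1 to 22 without 1 array. The replicate block gave 691 probe sets and 22 list genes, of which the 10 beyond the 12 are named in the report, and changed no other call among the list genes or the 15 probe sets. The spike scaling also let Sdc4, Tgfbr3, Cd14 and Ltbp4 pass (limma adjusted p = 0.0234 to 0.0408). The share of calls higher in FORKO was 64.0%, 50.6% with equal medians and 86.5% with the spike scaling, which moved the median of all probe sets to 0.17. Without 1 array, Cyp17a1 ran from -0.27 to 1.22, below 0 without WT replicate 2 (-0.17) or FORKO replicate 1, and Ephx2 from -1.13 to 0.26, above 0 without FORKO replicate 1. The cause of these shifts was not tested. Dim signals limit Comp in FORKO and Thbs3 in WT, and Cd47 changes lie within their standard errors.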

Other observations

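The 4 genes that follow were chosen after their values were seen. Adamts20, a secreted protease with type 1 repeats, read 5.0, 490.5 and 521.2 in FORKO ovaries and 10.8, 6.7 and 13.3 in WT ovaries. FORKO replicates 2 and 3 were thus the only arrays above the dim threshold. Its log2 change of 3.16 ± 1.21 did not pass (limma adjusted p = 0.266). Vldlr, a lipoprotein receptor that also binds Thbs1, read 99.8, 373.5 and 450.2 in FORKO ovaries and 438.5, 327.5 and 564.6 in WT ovaries, and Sdc1, a syndecan, read 131.4, 1181.8 and 1259.9 in FORKO ovaries and 220.6, 686.7 and 649.9 in WT ovaries. Fn1, the matrix protein fibronectin, read 55.9, 493.4 and 436.7 in FORKO ovaries and 117.0, 176.1 and 185.7 in WT ovaries. Like Thbs1, these 4 genes were lowest on FORKO replicate 1, and all but Vldlr were highest on FORKO replicates 2 and 3.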
